A study of Bos taurus with 9 samples.

Results

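Of the transcripts measured in mature bovine oocytes, 69 stood higher in every library treated with iodoacetate or dichloroacetate than in every control library and reached a ratio of means of at least 1.5. They were chosen from the 15978 genes in the count table, of which 6531 passed the rule on level. The members were chosen by their CPM, the count of a gene scaled to its library's total, in these same 9 libraries. A gene had to have a mean of at least 10 CPM, to lie outside the 100 highest means, and to differ from 1 identifier that the rule set aside. The lowest of its 6 treated values had to exceed the highest of its 3 control values, and its treated mean had to be at least 1.5 times its control mean. Every difference between treated and control libraries given here is therefore a description of the choice, with no test.

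The oocytes were from cattle (Bos taurus), collected as cumulus-oocyte complexes from slaughterhouse ovaries and matured in vitro for 24 h. The medium, which in all 3 groups held serum, gonadotropins and estradiol, was supplemented with iodoacetate, with dichloroacetate or, in the control, with neither. Each group had 3 libraries, each a pool of 5 oocytes stripped of cumulus cells and showing a first polar body. The doses in the labels span 0.1 to 5 µM of iodoacetate and 0.1 to 5 mM of dichloroacetate. Which of them the sequenced oocytes received is not stated, so whether any values here are at matched doses is not known. Nothing in the labels ties a pool to an animal or a maturation run, and the spread between pools may be partly technical. Library totals ran from 7776877 to 9834849 counts.

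Iodoacetate is known to inactivate glyceraldehyde-3-phosphate dehydrogenase, the glycolytic enzyme upstream of pyruvate, and dichloroacetate to inhibit the kinases that switch off pyruvate dehydrogenase, the enzyme that commits pyruvate to mitochondrial oxidation. A fully grown oocyte makes little new RNA. During maturation its stored messages change mainly by decay and by lengthening or shortening of their poly(A) tails, and a library primed on poly(A) can register both. Within a pool, more RNA of a kind in each oocyte and more oocytes holding it cannot be told apart, and a share of the reads can also move because other transcripts moved.

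The count table names genes by Ensembl identifier only, and 0 of these could be paired with a symbol through the RefSeq gene table. What the members encode, the pathways they belong to, markers of oocyte and cumulus cells, and the members' sequences were therefore not analysed here. Members are described by their values, and few are named.

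The separation between treated and control libraries was narrow for most members. The ratio of treated to control mean had a median of 1.66 and ran from 1.50 to 2.56, whereas its median over all 6531 genes kept was 0.981. It was at least 2 for 8 members and under 1.8 for 54. The lowest treated library exceeded the highest control library by a factor with a median of 1.16, from 1.00284 to 1.53. That factor was under 1.1 for 21 members and at least 1.2 for 21. In all, 203 genes, or 3.11% of those kept, had treated libraries that were all above the control libraries, and the 69 with the larger ratio make up 1.06%. The other 134 had a ratio under 1.5. The 5 members just inside the limit had ratios between 1.50 and 1.51, and the 5 genes just outside it between 1.47 and 1.48.

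**Figure D1:**
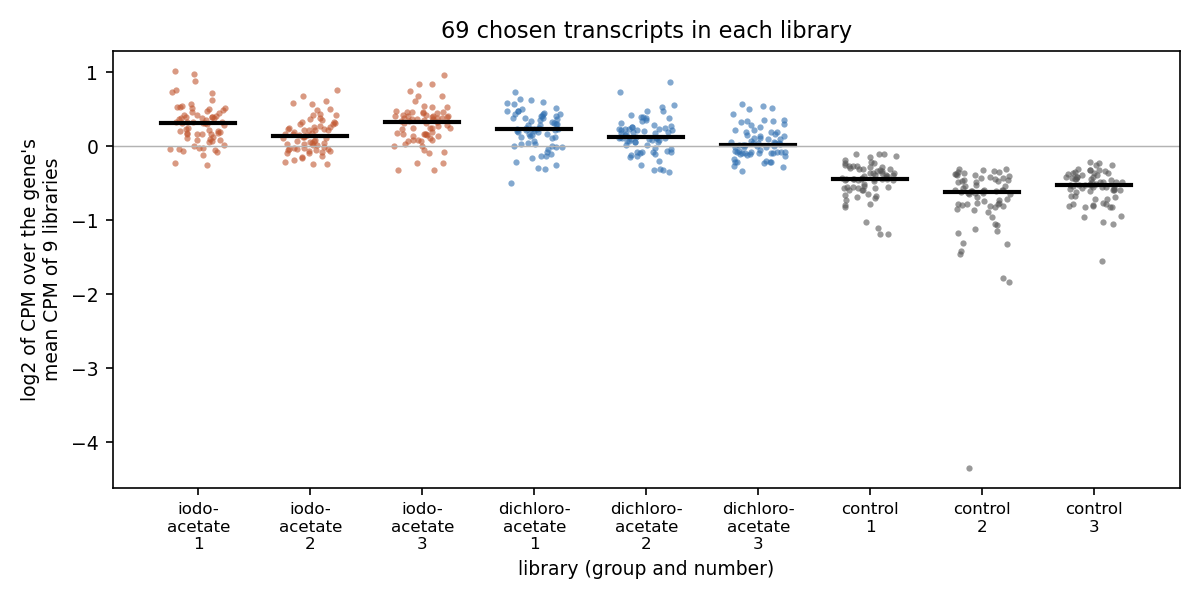
CPM of each of the 69 members in each library, as log2 of its ratio to that gene's mean over 9 libraries; 1 point is 1 gene and the black bars are medians. By choice, each gene's control points lie below its 6 treated points; the point far down in control library 2 is ENSBTAG00000045578, at 2.70 CPM.

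The number of members did not stand apart from what other groupings of the same libraries give. The rule asks for this count over all 84 ways to take 3 of the 9 libraries as the low group. With the 3 control libraries as the low group it was 69. It was larger for 8 other choices and also 69 for 1 more, so 10 of the 84, the control included, gave at least as many genes. The counts ran from 0 to 178 with a median of 10. The largest came from iodoacetate library 3, dichloroacetate library 3 and control library 1, which share no treatment. The libraries numbered 2 in each group as the low group gave 103. Every other choice with a larger count than the control took its low libraries only from those numbered 1 and 3. The larger counts thus follow the library numbers, which the labels do not tie across groups, and why was not tested. So a list of this length also arises from groupings of these libraries that cross the treatments, and nothing is read from its length.

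**Figure D2:**
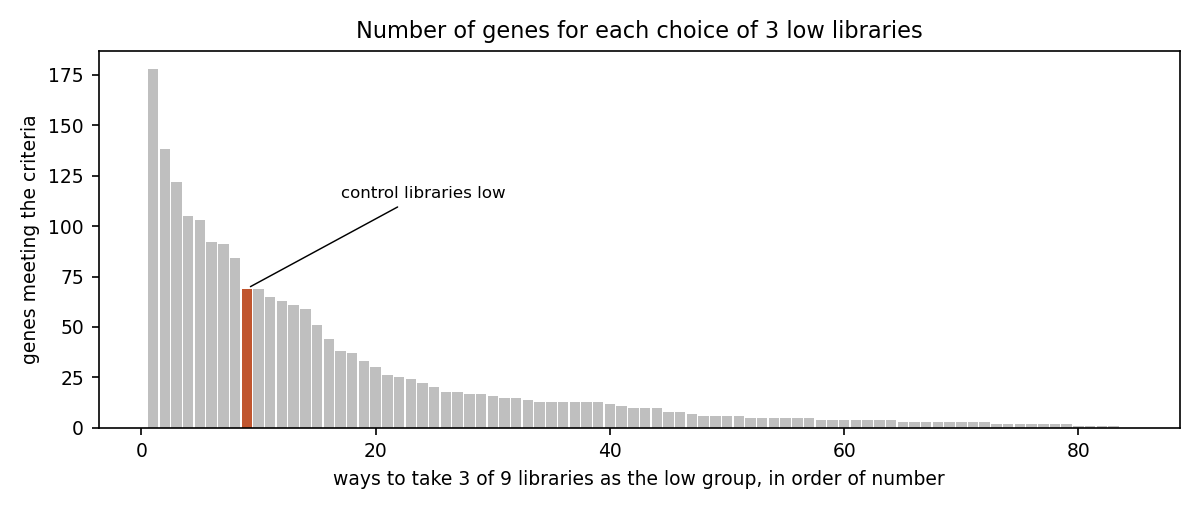
Number of genes that met the same criteria (y axis) for each of the 84 ways to take 3 of the 9 libraries as the low group (x axis, in order of number). The control libraries, the coloured bar at 69, come after 8 larger counts that reach 178.

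ENSBTAG00000045578 had the largest ratio of the members. Its levels were 111, 55.3 and 71.3 CPM with iodoacetate, 56.4, 64.1 and 54.1 CPM with dichloroacetate. The control libraries held 31.8, 2.70 and 46.0 CPM. The groups do not overlap, but control library 2 lies far below the other control libraries, at only 25 counts. The means were 79.2 ± 28.7 CPM with iodoacetate, 58.2 ± 5.24 CPM with dichloroacetate and 26.8 ± 22.1 CPM without either compound (SD, n = 3 each). The ratio to the control mean was 2.95 for iodoacetate and 2.17 for dichloroacetate. Without control library 2 these ratios were 2.04 and 1.50, and without control library 3 they were 4.59 and 3.37, so the size of this difference rests on single control pools.

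ENSBTAG00000002490 had the highest mean of the members, 812 CPM over all libraries. CPM is not corrected for transcript length, so this order among genes is one of reads. Its levels were 1155, 779 and 906 CPM with iodoacetate, 1011, 888 and 804 CPM with dichloroacetate. Control levels were 622, 606 and 543 CPM. The control pools lie close together here and the treated pools are spread more widely. The means were 946 ± 191, 901 ± 104 and 590 ± 42.0 CPM in that order (SD, n = 3 each), and the ratios to the control mean were 1.60 for iodoacetate and 1.53 for dichloroacetate. Every library held at least 5338 counts of this transcript, so counting error is small beside the spread between pools.

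**Figure D3:**
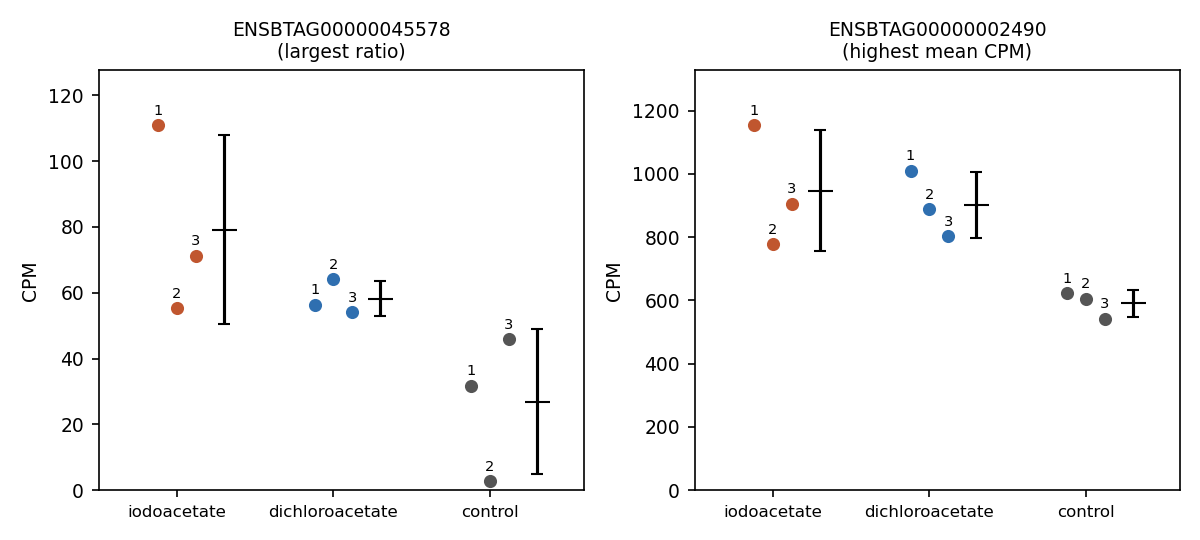
CPM (y axis, from 0) of ENSBTAG00000045578 and ENSBTAG00000002490 in the 3 libraries of each group, with library numbers beside the points and the mean ± SD to their right. In the left panel control library 2 is at 2.70 CPM and control library 3 at 46.0 CPM; in the right panel the control libraries lie between 543 and 622 CPM.

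The members included transcripts of low, middle and high level among the genes kept. Their means over 9 libraries ran from 10.4 to 812 CPM with a median of 41.5, and the median of all genes kept was 46.0 CPM. There were 22 members under 20 CPM (31.9%, against 23.1% of genes kept), 28 between 20 and 100 CPM (40.6% against 48.8%) and 19 at 100 CPM or more (27.5% against 28.1%). The median ratio was 1.73 in the lowest of these classes, 1.65 in the middle and 1.56 in the highest. Of the 8 members with a ratio of at least 2, 5 were under 20 CPM and 1 was at 100 CPM or more. The members were chosen on this ratio, so nothing is read from how it falls with level. The fewest counts of a member in any library were 25, and the median of the members' lowest counts was 207.

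A pair of members may not be separate measurements. Over the 2346 pairs of members, the chi-square per degree of freedom for a constant ratio of their counts over the 9 libraries had a median of 8.50. For ENSBTAG00000009889 and ENSBTAG00000009895, a pair singled out after its values were seen, it was 0.0159, far less than separately counted reads would give. The first had 584 to 1244 counts and the second 565 to 1218, and their ratio stayed between 0.965 and 0.985 in every library. Of the other pairs, 7 had a value under 1, the lowest of them 0.361, which is in the range that sampling noise gives. How reads shared by overlapping or near-identical genes were counted is not stated in the labels or the table, so the values of ENSBTAG00000009889 and ENSBTAG00000009895 are uncertain. With this pair counted once the members number 68.

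Both compounds were above the control for each member, and more of the members reached the 1.5-fold limit with iodoacetate. The iodoacetate mean was 1.47 to 2.95 times the control mean, with a median of 1.73. The dichloroacetate mean was 1.18 to 2.47 times the same control mean, with a median of 1.59. The limit was met by 66 members with iodoacetate and by 50 with dichloroacetate, 47 of them with both, 19 with iodoacetate alone and 3 with dichloroacetate alone. Among all genes kept, all 3 libraries lay above the control with a ratio of at least 1.5 for 2.05% with iodoacetate and 1.07% with dichloroacetate. These shares and the members' ratios use the same control libraries and come from the contrast that chose the members, so nothing is read from them.

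The compounds were compared with each other. The choice of members did not use this difference, but each library of both groups had to lie above the control. The genes kept as a whole met no such condition. The choice can therefore itself shape the members' shares and differences that are set beside those of the genes kept. For 51 of the 69 members the mean CPM was higher with iodoacetate and for 18 with dichloroacetate, a share of 73.9% for iodoacetate against 53.5% of the genes kept. On the scale of edgeR's fit 49 were higher with iodoacetate. The median difference, iodoacetate minus dichloroacetate, was 0.08 on the log2 scale, from -0.29 to 0.65, and 0.01 over the genes kept. Without dichloroacetate library 2 the number higher with iodoacetate was 33 of 69. The median was then -0.00430, and -0.0138 over the genes kept. Without any other single treated library the number ran from 41 (without iodoacetate library 1) to 57 (without dichloroacetate library 1). The lean towards iodoacetate therefore varies with the pools used. All 3 iodoacetate libraries lay above all 3 dichloroacetate libraries for 3 of the 69 members, or 4.35%, and for 1.58% of the genes kept. The reverse held for 0 of the 69 members and for 1.75% of the genes kept.

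No member passed the test between the compounds (edgeR, quasi-likelihood, p-values adjusted over all genes). The test called 0 of the 69 members and 0% of the 12016 genes tested. With DESeq2 or with limma, 0 members passed. An unadjusted p under 0.05 was found for 1 member by edgeR, by DESeq2 and by limma, and by edgeR for 1.55% of all genes tested. With a block for the place of each library in the order of title numbers, which the labels do not say pairs libraries, edgeR gave 2 members and 384 of the 12016 genes at that level, and called 0. A p that misses the threshold does not show that the compounds act alike. The 95% interval of the difference lay within 2-fold in either direction for 63 members (91.3%, against 92.8% of the genes kept) and within 1.5-fold for 20, and for 6 members it reached past 2-fold.

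The member with the smallest p was ENSBTAG00000053233, at 54.0, 48.9 and 42.1 CPM with iodoacetate, 31.2, 30.5 and 30.1 CPM with dichloroacetate. In control pools it stood at 27.1, 26.8 and 23.9 CPM. The dichloroacetate pools lie just above the control pools, and the iodoacetate pools are clear of both. The difference between the compounds was 0.65 on the log2 scale with a standard error of 0.21 (95% interval 0.21 to 1.1). In edgeR's test the unadjusted p was 0.0072 and the adjusted p was 0.99982, which does not pass. The interval, like the others given here, is not adjusted for the number of genes tested, and this member was singled out for its p. The dichloroacetate mean of ENSBTAG00000053233 was 1.18 times the control mean, the lowest such ratio among the members, and its iodoacetate mean was 1.86 times.

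Among members lower with iodoacetate than with dichloroacetate, ENSBTAG00000012659 had the smallest p. It stood at 46.7, 57.4 and 49.1 CPM with iodoacetate, 67.1, 57.1 and 61.6 CPM with dichloroacetate, while the control pools were at 33.7, 35.9 and 34.4 CPM. The compounds overlap, since iodoacetate library 2 lies above dichloroacetate library 2, and the control pools lie within a narrow range below both. The difference was -0.29 on the log2 scale with a standard error of 0.20 (95% interval -0.72 to 0.14), with an adjusted p of 0.99982 in edgeR's test, which does not pass. For ENSBTAG00000002490, the member with the highest mean, the difference was 0.07 (95% interval -0.36 to 0.50). For ENSBTAG00000045578 it was 0.45, with an interval from -1.16 to 2.07.

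**Figure D4:**
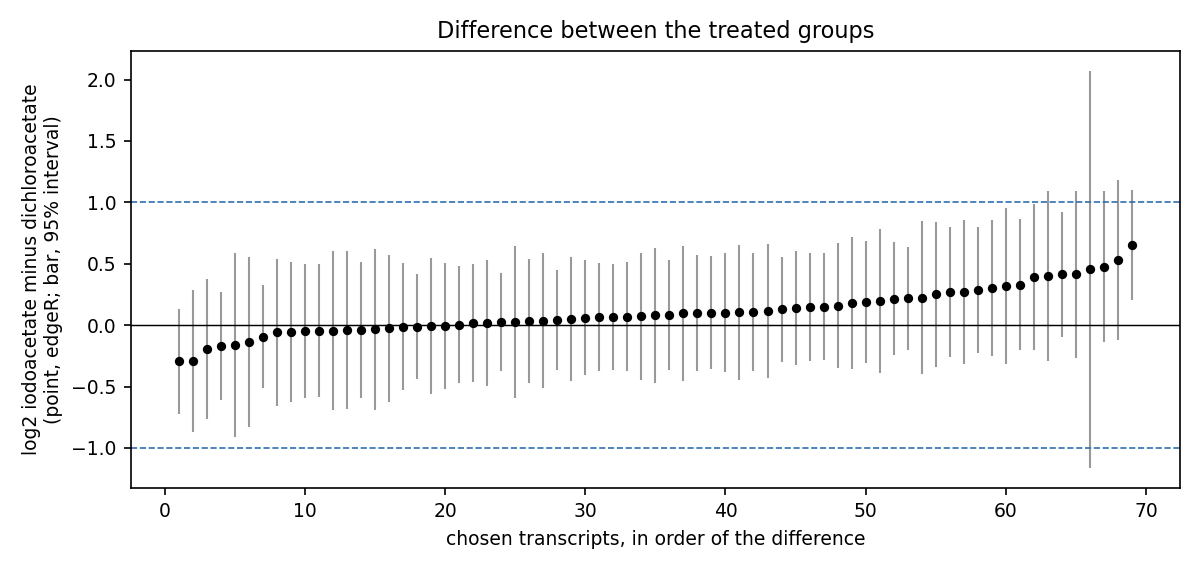
Difference between the compounds for each of the 69 members, as log2 of iodoacetate over dichloroacetate (y axis), in order of the difference (x axis); points are edgeR estimates, bars 95% intervals, and dashed lines mark 2-fold. Estimates run from -0.29 to 0.65, and the bars of 63 members stay between the dashed lines.

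The members also differed in level between pools of the same group. Their summed level was 8027, 7118 and 8235 CPM with iodoacetate, 7975, 6860 and 6949 CPM with dichloroacetate. In control oocytes it was 4913, 4277 and 4635 CPM. Library 2 was the lowest in each group. The means were 7793 ± 594, 7261 ± 620 and 4608 ± 319 CPM (SD, n = 3 each). The sum leans on the abundant members, so members were also counted one by one.

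Control library 2 was the lowest control library for 39 members, or 56.5%, against 30.7% of all genes kept. Iodoacetate library 2 was the lowest of its group for 35 (50.7% against 31.5%). With dichloroacetate, library 3 was the lowest for 34 (49.3% against 40.4%) and library 2 for 21 (30.4% against 20.3%). The same libraries 2 were the highest of their group for 42.6%, 57.5% and 46% of all genes kept, in the order iodoacetate, dichloroacetate and control. With TMM scaling, which puts the libraries on a common level by their typical gene, library 2 was the lowest in all 3 groups. It was so for 38, 44 and 45 of the 69 members in that order, a majority in each group. Of the genes kept, 37.1%, 41.9% and 40.3% had their lowest value there. So in dichloroacetate the lowest library depends on the scaling. The members were chosen on these same values, so the choice can itself shape which library of a group is lowest. Nothing is read from these shares. The labels tie no libraries across groups, and the part of library 2 in the members' separation was not tested beyond leaving it out.

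**Figure D5:**
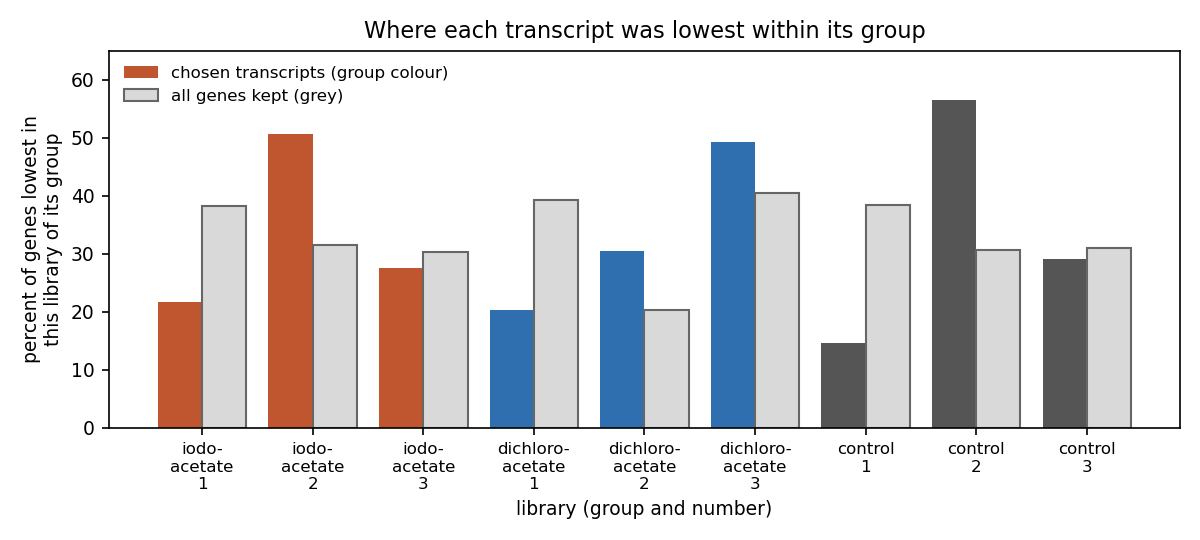
Share of the 69 members (coloured bars) and of all 6531 genes kept (grey bars) that were lowest in each library within its own group of 3, in percent, on the CPM scale. Control library 2 holds 56.5% of the members' lowest control values and 30.7% of those of all genes. The choice of members used these same values.

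Some pools set the members' limits more often than others. Among the treated libraries, dichloroacetate library 3 held the lowest value for 29 of the 69 members. Each of the other treated libraries held it for 5 (iodoacetate library 1) to 11. Among the control libraries, library 1 held the highest value for 38 (55.1%, against 33.7% of the genes kept). The choice used these same values, so nothing is read from these counts. The same criteria gave 212, 115 and 91 genes without control library 1, 2 and 3. Of these, 67, 57 and 60 were among the 69. With a control library left out, the criterion of no overlap is easier to meet. Of the members, 57 kept a ratio of at least 1.5 without control library 2, and 39 were chosen whichever library was left out. Within-group spread was like that of other genes in the treated groups, with a median coefficient of variation of 17.2% for iodoacetate and 16.7% for dichloroacetate, against 17.9% and 17.3% of the genes kept. In the control it was 15.3% against 20.7%, a difference that the choice of genes with low and separate control values can itself produce. The choice used the treated values as well, so it can also shape the treated spreads, and nothing is read from them.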

How the data were processed

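RNA sequencing of 9 libraries was analysed from 1 table of counts deposited by the authors, raw whole numbers per Ensembl gene. Per the labels' protocols, cDNA was made from pools of 5 oocytes with a SMART-Seq HT kit and sequenced as 100 bp pairs. Per the submitters' processing notes, Trim Galore, cutadapt, STAR, featureCounts and DESeq2 were used. Tool versions, genome build, annotation and counting mode were not given in the sources used here. There were no molecular identifiers, so counts include amplified copies, and no strand is marked.

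CPM for the choice of members used column totals. Groups came from the treatment label, and replicate numbers only name libraries. Iodoacetate was tested against dichloroacetate with edgeR 4.0.16 in R 4.3.3 (TMM, default filter, robust quasi-likelihood, 1 model of all 9 libraries, Benjamini-Hochberg adjustment over 12016 genes, threshold 0.05); DESeq2 1.42.0 and limma 3.58.1 were alternatives. Scripts were tested on simulated data. For the test between compounds the planted changes were larger than any difference found among the members. The simulation therefore does not show whether differences of the members' size could be called. For the choice of members, the simulated libraries varied far less than these pools did. That simulation does not show how the choice works at the spread of these pools. The identifiers to name were the member with the largest ratio and that with the highest mean CPM; the others were added after their values were seen. The members, lists and rule were chosen with earlier results of these data known. Gene lists and promoter motifs set out by symbol were not used, for lack of symbols.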

Additional observations from a re-analysis of the deposited data

How the results depend on the processing

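The number of members stayed within 1.5 times of 69 with TMM library sizes (73), DESeq2 size factors (73, 62 of the members in each), a minimum of 5 CPM (86) or 20 CPM (47) and the 100 highest means kept (69). A lower minimum ratio gave 174 genes and a minimum of 2 gave 8, as looser and stricter limits must. Leaving out 1 library gave 62 to 212 genes, the highest without control library 1. Between the compounds, 0 members were called in all 12 alternatives. At an unadjusted p under 0.05 there was 1 member in the main fit and 1 to 2 without 1 library. The adjusted p of ENSBTAG00000053233 and ENSBTAG00000012659 ranged from 0.999125 to 1, and their direction held throughout. Both were picked for their p from these same libraries, which the alternatives share, so the kept direction is no separate evidence. The ratios of ENSBTAG00000002490 to control ranged from 1.43 to 1.7456. The labels give no numbers that pair libraries across groups. A replicate block by the order of the title numbers, added after seeing the data, gave 2 members at an unadjusted p under 0.05 and called 0. Libraries of the same place in that order deviated together from their group means with correlations from 0.113 to 0.445 over 9 pairs, and 8 of the 9 libraries correlated best with one of their own place, a hint from the data and not from the design. Amplification from few oocytes limits the precision along with depth, and their parts were not tested.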
